A study of Sus scrofa with 2 samples.

Results

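Of 31664 nuclei kept from the free wall of the left ventricle, 12590 (39.8%) were cardiomyocyte nuclei. The tissue came from Bama pigs, a small breed from China. A nucleus was counted as a cardiomyocyte nucleus when transcripts of RYR2, CTNNA3 and MLIP together made up at least 1.5% of its UMIs (counted RNA molecules). Transcripts of each of 5 marker sets of other cells had to stay under 0.1%. These were MYH11 and ACTA2 (smooth muscle), FLT1, PECAM1 and VWF (endothelium), ABCA8, COL1A1 and PDGFRA (fibroblasts), RGS5 and EGFLAM (pericytes), and CD163 and F13A1 (macrophages). The nuclei were thus chosen by the measured levels of those genes, whose values are a description of the choice. The wild-type library (WT) gave 6824 cardiomyocyte nuclei and the triple-transgenic library (TG, PNPLA3I148M-GIPRdn-hIAPP) gave 5766. The transgenic genotype joins the I148M variant of PNPLA3, a lipase of lipid droplets, GIPRdn, a dominant-negative form of the GIP receptor (GIP is a gut hormone), and human IAPP, the islet amyloid peptide. Both groups had eaten a high-fat, high-sucrose diet for 12 months, so no library shows a pig on a plain diet. The promoters that drive the transgenes, the ages and the number of pigs behind each library are not given in the sources used here. With 1 library per genotype there is no replicate check, and each difference below is between these 2 libraries. All intervals are 95% intervals that cover counting error only.

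Cardiomyocytes are the contracting cells of the heart. At each beat, calcium entering through the cell membrane opens the ryanodine receptor RYR2 of the sarcoplasmic reticulum, and the released calcium lets myosin of the thick filament pull on actin of the thin filament. The cells are coupled end to end at intercalated discs, where catenins such as CTNNA3 anchor cadherins, and they burn mainly fatty acids, with glucose and ketones as further fuels. Sequencing of nuclei reads unspliced transcripts of long genes well and the abundant messengers of the cytoplasm less directly.

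The muscle marker share had separate peaks on either side of the threshold in both libraries. Its median over cardiomyocyte nuclei was 3.29% of UMIs in WT and 2.66% in TG. Just inside the threshold, between 1.5% and 1.7%, lay 79.0 WT and 224 TG nuclei. Just outside it, between 1.3% and 1.5% and low in the other sets, lay 69.0 WT and 161 TG nuclei. The TG peak thus sat closer to the threshold. MYBPC3, myosin-binding protein C, measured 737 counts per 1000000 nuclear-encoded UMIs (CPM) just inside the threshold in WT and 1044 CPM just outside. In TG it measured 606 and 605 CPM. MYBPC3 thus read higher just outside the threshold than just inside it in WT, and nearly the same in TG. TNNT2 and MYH7, described below, read higher just outside in both libraries. Further out, between 0.5% and 1.3% and low in the other sets, lay 287 WT and 450 TG nuclei. Their MYBPC3 level was 863 CPM (WT) and 679 CPM (TG), above the 818 and 582 CPM of nuclei at 1.7% and over. The minimum thus left out nuclei rich in MYBPC3, and whether they are cardiomyocyte nuclei was not tested. Another 280 WT and 245 TG nuclei reached 1.5% and were left out by one of the other marker sets.

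**Figure D1:**
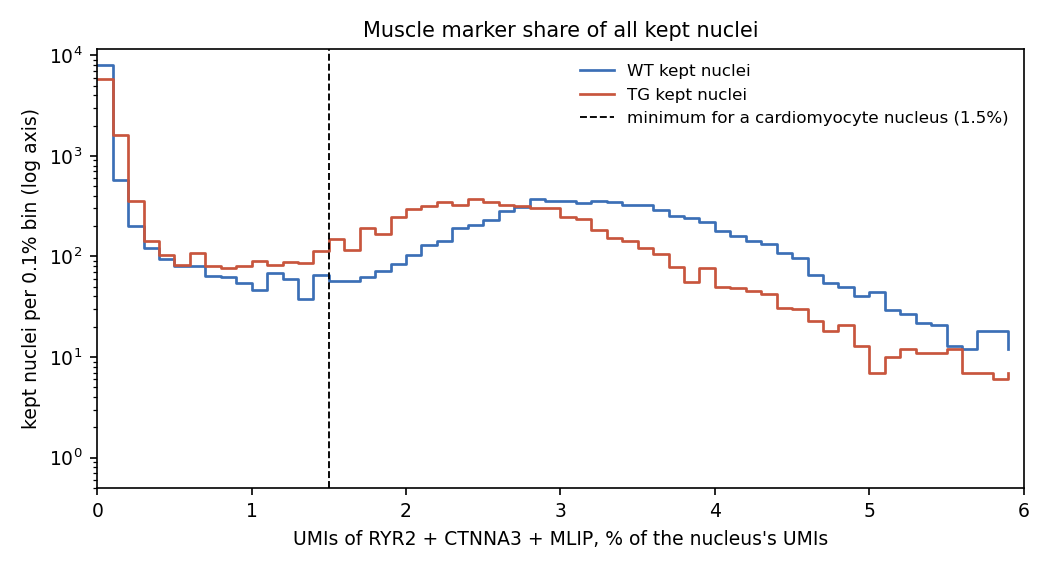
Number of kept nuclei (log axis) per 0.1% bin of the share of UMIs taken by RYR2, CTNNA3 and MLIP, with 1 line per library and the 1.5% minimum dashed. Both libraries have a peak near 0 and another above the minimum, the TG peak lying to the left of the WT peak; the 164 WT and 82 TG nuclei at 6% or more are beyond the axis.

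Markers that the choice did not use were checked against 3 sets of comparison nuclei, each with a muscle marker share under 0.5%. They held 954 WT and 174 TG fibroblast nuclei, 851 and 1404 endothelial nuclei, and 737 and 483 macrophage nuclei. MYBPC3 was at 817 CPM (WT) and 583 CPM (TG) in cardiomyocyte nuclei, against 62.3, 79.1 and 61.0 CPM in the fibroblast, endothelial and macrophage nuclei of WT and 183, 140.1 and 155 CPM in those of TG. TNNT2, cardiac troponin T, was at 1517 CPM (WT) and 1038 CPM (TG) in cardiomyocyte nuclei, and at 407, 483 and 362 CPM in the WT comparison nuclei. In the TG comparison nuclei it read 991, 941 and 1018 CPM, nearly as much as in TG cardiomyocyte nuclei. MYH7, the slow myosin heavy chain, read 2525 and 2648 CPM in cardiomyocyte nuclei and 3378, 3375 and 3641 CPM in the TG comparison nuclei, so it does not separate the classes in TG. Of these 3 markers, MYBPC3 stood well above the comparison nuclei in both libraries, and TNNT2 did so in WT. MYH7 read 1565 CPM in WT nuclei with a muscle marker share under 0.5% and low in the other sets. In WT nuclei at 1.7% and over it read 2524 CPM. Muscle transcripts were thus read in other nuclei of both libraries, at higher levels in TG for these markers. Their part in the counts of cardiomyocyte nuclei was not tested. The comparison nuclei were chosen to be low in RYR2, CTNNA3 and MLIP, so the low levels of those genes there carry no information.

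Cardiomyocyte nuclei made up 40.8% of kept WT nuclei, with a Clopper-Pearson interval from 40.1% to 41.6%, and 38.6% of kept TG nuclei (37.8% to 39.4%). They held 65.8% and 63.3% of all kept UMIs. The median cardiomyocyte nucleus had 10960 UMIs and 3246.5 genes in WT, and 8643.5 UMIs and 2876 genes in TG. The shallowest had 624 UMIs in WT and 1974 in TG. The median share of mitochondrially encoded transcripts was 0.176% and 0.263%. The TG file holds exactly 15000 barcodes, a round number whose origin is not given in the sources used here, and the TG share depends on it. The shares also depend on the marker minimum, and at 3% they were 26.4% and 12.4%. Nuclei under 1.5% that were rich in MYBPC3, such as the 287 WT and 450 TG nuclei between 0.5% and 1.3%, are not counted in them. Of the 81 barcodes found in both files, 12 were cardiomyocyte nuclei in both.

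Across all 19562 genes with at least 20 UMIs, a gene was called higher or lower in TG at a ratio of 1.5 with an interval that left out 1. By this rule 4880 genes (24.9%) were higher and 1639 (8.38%) lower in TG cardiomyocyte nuclei. The higher calls lay mostly among scarce transcripts: 38.0% of genes at a mean of 0 to 1 CPM were higher, against 4.47% of genes above 200 CPM. Among the 3474 genes that reached 50 CPM, 220 (6.33%) were higher and 363 (10.4%) lower, and this is the yardstick for the abundant genes below. The shares over all genes, 24.9% higher and 8.38% lower, are the yardstick for counts over a list, whose members differ in level. The single most abundant transcript, ENSSSCG00000048856, which has no symbol in the tables used, took 6.34% of nuclear-encoded UMIs in WT and 13.7% in TG. Per nucleus its share ran from 3.49% to 10.1% in WT (5th to 95th percentile, median 6.11%) and from 7.20% to 22.4% in TG (median 13.2%). It was less abundant in the comparison nuclei, at 4.32% and 7.72% in fibroblasts and at 2.52% and 3.18% in macrophages. Because CPM share a fixed total, this transcript lowers the CPM of every other gene in TG. With it left out of the total, the median log2 ratio of all genes moved from 0.09 to 0.21, and the calls among genes at 50 CPM became 335 higher and 243 lower. With TMM factors they were 186 and 536, so for abundant genes the balance of higher against lower depends on the scaling. Leaving the transcript out ended the lower call of CHRM2, DSP, FGFR1, FH, HBB, KCNN2, MDH2, MEIS1, MYH7B, MYOM3, NFIA, NKX2-5, NPR3, RBFOX2, SMYD1 and TSC22D3, and gave KCNIP2 a higher call. TMM factors ended the higher call of TPM3, HAND2 and DIO2 and gave ABRA, GATA4, IGF1R, JUN, MYL2, SLC8A1, TBX5 and TNNT2 a lower one. The calls given below are those of the plain CPM, and for these genes they depend on the scaling.

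**Figure D2:**
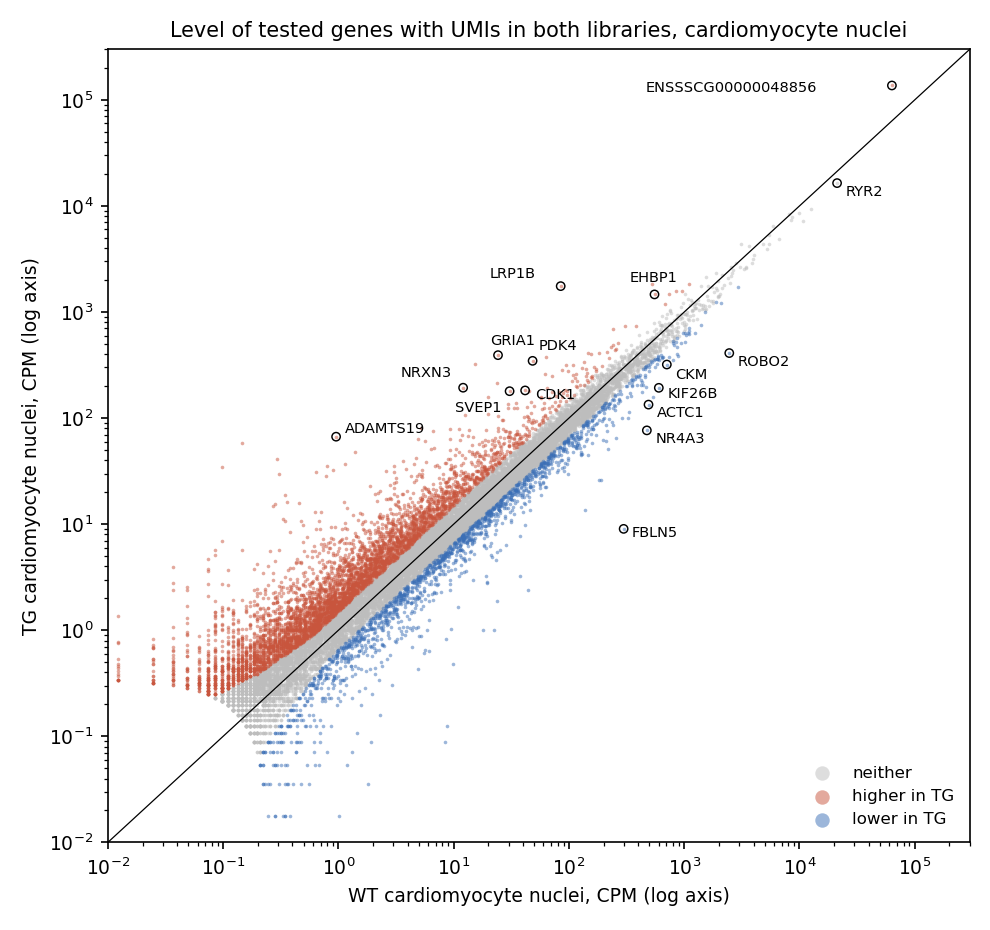
Level of 19547 tested genes with UMIs in both libraries in WT (horizontal) and TG (vertical) cardiomyocyte nuclei, in CPM on log axes, 1 point per gene, coloured by call, with equality as a line. The abundant genes lie near the line, LRP1B, GRIA1, NRXN3, PDK4 and ADAMTS19 lie far above it, and FBLN5, NR4A3, ROBO2 and ACTC1 far below.

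The most abundant named transcripts were those of long genes of excitation, adhesion and the cytoskeleton. RYR2 (RefSeq annotation of Sscrofa11.1, pig chromosome 14, 53652140 to 54406691) was at 21193 CPM (WT) and 16421 CPM (TG), DMD, dystrophin, at 12467 and 9278 CPM, and SLC8A1, the sodium-calcium exchanger, at 10653 and 7241 CPM. The phosphodiesterases PDE3A and PDE4D, which break down cAMP, read 9939.9 and 8593 CPM for the first and 8594 and 7885 CPM for the second, and NEBL, nebulette of the Z-disc, at 8159 and 8473 CPM. None of these was called. All but NEBL read lower in TG, short of the ratio a call needs.

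Most genes of the contractile apparatus were neither higher nor lower, and the few called ones were mainly lower in TG. For the thick filament and M-band, of 12 members measured 1 was higher, 3 lower and the other 8 neither (median log2 ratio -0.30). The lower members were MYL3, the ventricular essential light chain (637 CPM (WT) and 369.9 CPM (TG)), MYOM3 of the M-band (378 and 236 CPM) and MYH7B (355 and 235 CPM); of these, MYL3 alone was called with the most abundant transcript left out of the total. MYL4, the atrial essential light chain, was the higher one, at 0.208 and 1.37 CPM. For the thin filament, of 11 members measured 1 was higher, 2 lower and the other 8 neither (median log2 ratio -0.30). ACTC1, cardiac alpha-actin (pig chromosome 1, 136281119 to 136286551), stood furthest apart, at 490.3 CPM (WT) and 134 CPM (TG) (ratio 0.273, 0.267 to 0.280). The TG fibroblast, endothelial and macrophage nuclei held 90.3, 75.4 and 85.8 CPM, and the WT ones 109.6, 135 and 104 CPM. ACTC1 thus stood less far above other nuclei in TG than in WT. Skeletal alpha-actin ACTA1 was lower as well, at 1399 and 757 CPM, and TPM3, a tropomyosin, higher except with TMM factors or the median ratio set to 1, at 22.1 and 34.3 CPM. The tropomyosin TPM1 (1609 and 1289 CPM), troponin C, TNNC1 (607 and 463 CPM), and troponin I, TNNI3 (60.7 and 79.4 CPM), met neither call.

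Z-disc genes, which anchor the actin filaments, had a like balance: of 27 members measured 1 was higher, 5 lower and the other 21 neither (median log2 ratio -0.32). ACTN2, alpha-actinin, was at 2947 CPM (WT) and 1739.8 CPM (TG) (ratio 0.590, 0.586 to 0.595), and CSRP3, the muscle LIM protein, at 563 and 304 CPM. SMYD1, a muscle methyltransferase, was at 194 and 121 CPM, a call lost with the most abundant transcript left out of the total. PDLIM3, a PDZ and LIM protein, was the higher member, at 13.1 and 24.4 CPM. The stretch-responsive ankyrin repeat gene ANKRD1 read 1969 and 1978 CPM and XIRP2 129 and 145 CPM, and both met neither call. Levels in other nuclei limit this reading in TG. Of the 27 Z-disc genes, 1 in WT and 7 in TG were less than 2 times the median level of the 3 comparison sets, and of the 11 thin filament genes 1 and 7.

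Genes of calcium handling split. For calcium release and uptake, of 26 members measured 3 were higher, 2 lower and the other 21 neither (median log2 ratio 0.04); the sign of this median changed under other settings. TRDN, triadin, which tethers calsequestrin to the release channel, was higher at 1111 CPM (WT) and 1835 CPM (TG) (ratio 1.65, 1.64 to 1.67), and its partner CASQ2, calsequestrin, lower at 661 and 376 CPM (ratio 0.569, 0.560 to 0.578). SRL, sarcalumenin, another calcium binder of the sarcoplasmic reticulum, was lower as well, at 441 and 205 CPM. CACNA2D3, an auxiliary subunit of calcium channels, was higher at 108 and 315 CPM (ratio 2.92, 2.84 to 2.99), while the main cardiac pore subunit CACNA1C (277 and 235 CPM) and its partner CACNA2D1 (987 and 749 CPM) met neither call. The calcium pump ATP2A2 read 2534 and 2179 CPM and the kinase CAMK2D 3901 and 2874 CPM, also neither. CACNA2D3 was scarce in the comparison nuclei, at 47.3, 8.28 and 14.8 CPM in TG.

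Of the sodium and potassium channels, 26 were measured, of which 3 were higher, 3 lower and the other 20 neither (median log2 ratio -0.17). KCND3, which carries the transient outward current, was at 47.3 CPM (WT) and 92.5 CPM (TG), higher in TG. Its partner KCNIP2 (108 and 156 CPM) met neither call. KCNJ5, a subunit of the acetylcholine-gated potassium channel, was lower at 38.4 and 14.5 CPM (ratio 0.378, 0.349 to 0.408), with its partner KCNJ3 at 1513 and 1145 CPM (neither). The calcium-activated channel KCNN2 (526 and 338 CPM) and the sodium-activated channel KCNT2 (494 and 301 CPM) were lower, KCNN2 not with the most abundant transcript left out of the total.

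Intercalated disc genes stayed mostly near equality: of 22 members measured 2 were higher, 2 lower and the other 18 neither (median log2 ratio -0.20). PKP4, a plakophilin of cell junctions, was at 471 CPM (WT) and 197 CPM (TG) (ratio 0.419, 0.410 to 0.428), and DSP, desmoplakin, at 192 and 127 CPM, both lower in TG, DSP not with the most abundant transcript left out of the total. GJA1, connexin 43, the main gap junction protein of the ventricle, read 322 and 352 CPM, CDH2, N-cadherin, 3048 and 2675 CPM and PKP2 616 and 665 CPM, with no call. For the dystrophin complex and costameres, of 21 members measured 2 were higher, 1 lower and the other 18 neither (median log2 ratio -0.27). ITGB1, the integrin beta subunit, was the higher gene that reached 10 CPM, at 172 and 293 CPM, and CAV3, muscle caveolin, the lower one, at 64.8 and 39.2 CPM.

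**Figure D3:**
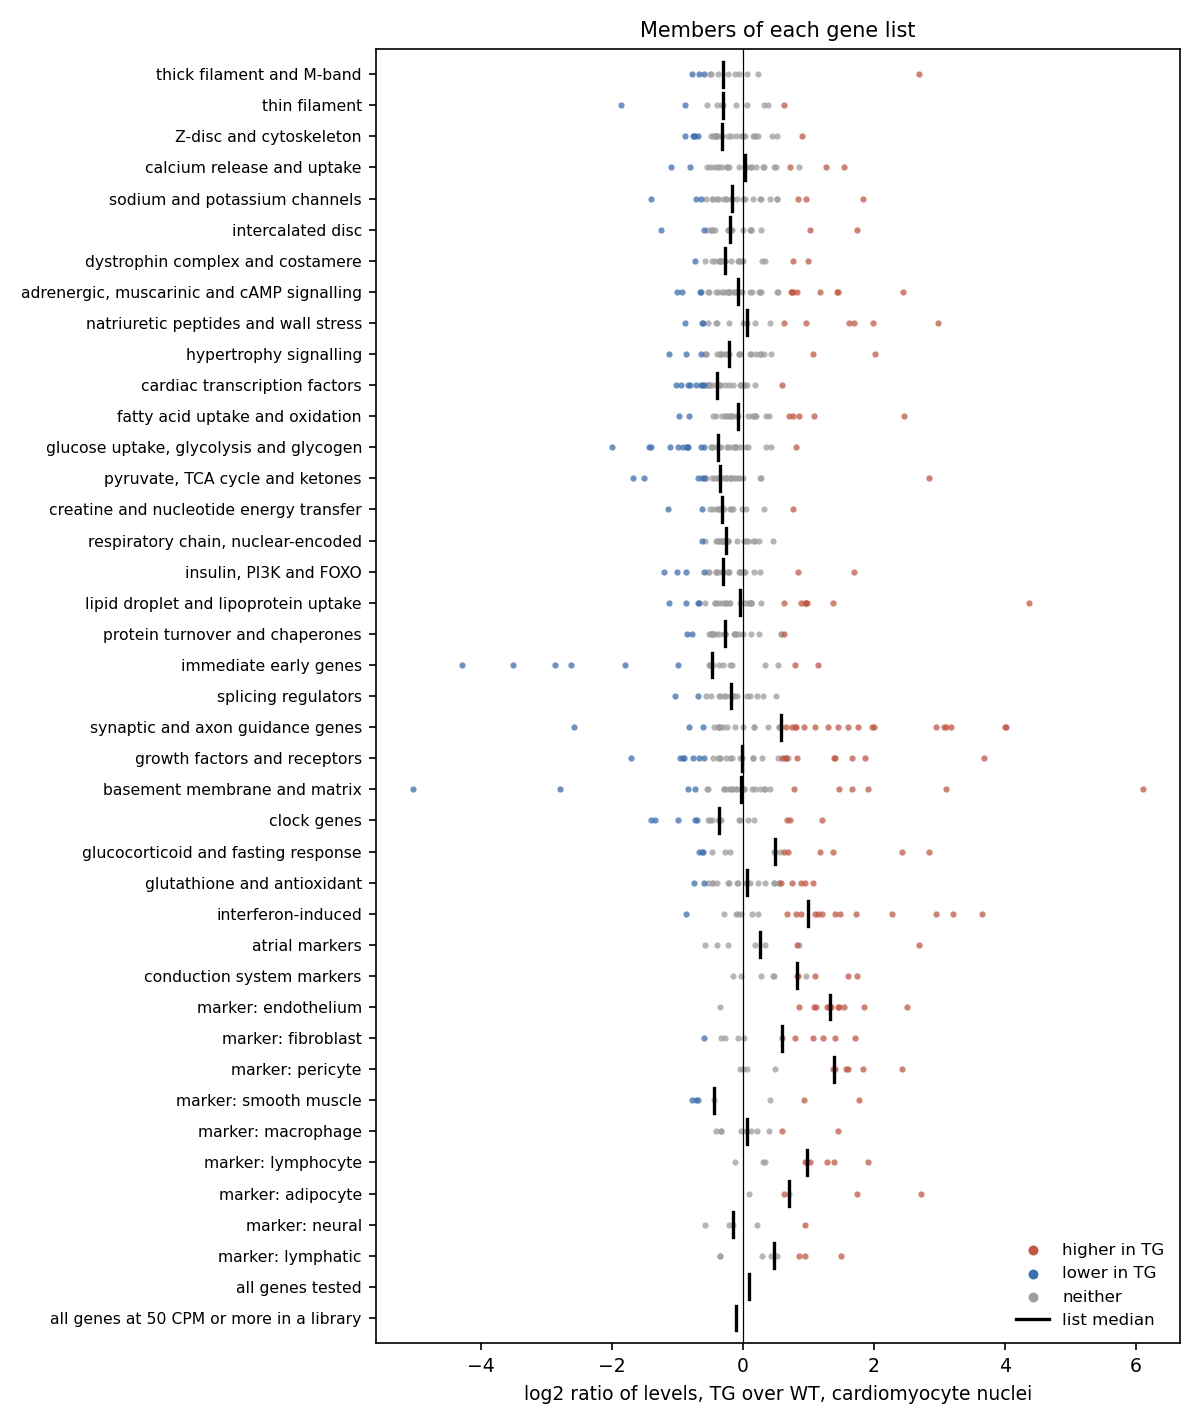
Log2 ratio of levels, TG over WT, for each measured member of each gene list (1 point per gene, coloured by call), with the list median as a black bar; all tested genes and those at 50 CPM or more are shown by their medians of 0.09 and -0.11. Most muscle and metabolic lists have medians below 0, while the synaptic list has a median of 0.58 and the endothelial marker list one of 1.33.

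In signalling through cAMP and acetylcholine, a cyclase was lower and several scarce phosphodiesterases higher. Of 34 measured members 8 were higher, 4 lower and 22 neither. With the most abundant transcript left out of the total, 9 were higher and 2 lower. Over all genes tested 24.9% were higher and 8.38% lower by plain CPM, so the share of higher calls was near the background. CHRM2, the muscarinic receptor of the heart, was at 1102 CPM (WT) and 701 CPM (TG) (ratio 0.636, 0.629 to 0.644), a call lost under that scaling, and ADCY5, a main cardiac adenylyl cyclase, at 267 and 139 CPM (ratio 0.523, 0.510 to 0.537). PDE7B was higher at 19.9 and 109 CPM, yet the TG comparison nuclei held more of it (369.6, 565 and 1577 CPM). PDE5A, which breaks down cGMP, was at 38.2 and 65.2 CPM. The adrenergic receptor genes ADRB1 (1.20 and 1.03 CPM) and ADRA1A (153 and 137 CPM) met neither call.

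Natriuretic peptide and wall stress genes had no common direction: of 17 members measured 6 were higher, 3 lower and the other 8 neither (median log2 ratio 0.07), with a median whose sign changed under other settings. CORIN, the protease that activates atrial natriuretic peptide, was at 379 CPM (WT) and 741 CPM (TG) (ratio 1.96, 1.93 to 1.99). NPPB, brain natriuretic peptide, was scarce, at 0.784 and 6.24 CPM, with a UMI in 0.308% of WT and 2.10% of TG cardiomyocyte nuclei. Its receptor for clearance, NPR3, was at 45.2 and 29.5 CPM, lower by plain CPM but not with the most abundant transcript left out of the total. Of 25 measured genes of hypertrophy signalling, 2 were higher, 3 lower and 20 neither, and HDAC5, a deacetylase that represses growth genes, was lower at 69.0 and 37.9 CPM.

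For cardiac transcription factors, of 30 members measured 1 was higher, 8 lower and the other 21 neither (median log2 ratio -0.40). The lower calls numbered 5 with the most abundant transcript left out of the total and 12 with TMM factors, and the background of lower calls by plain CPM was 8.38% over all genes and 10.4% at 50 CPM. ESRRG, an estrogen-related receptor that drives mitochondrial genes, was at 1105 CPM (WT) and 616 CPM (TG) (ratio 0.558, 0.551 to 0.565), and PPARGC1B, a coactivator of such receptors, at 96.9 and 47.5 CPM. The homeobox gene MEIS2 (813 and 493 CPM) and SRF (31.5 and 17.9 CPM) were lower too, while GATA4 (363 and 247 CPM), MEF2A (700.2 and 676 CPM), TBX5 (128 and 89.2 CPM) and PPARGC1A (699 and 533 CPM) met neither call. HAND2, at 27.6 and 41.6 CPM, was the one higher member by plain CPM, and not with TMM factors. MEIS1 (67.7 and 43.2 CPM), NKX2-5 (19.8 and 12.8 CPM) and NFIA (1511 and 997 CPM) were called lower by plain CPM but not with ENSSSCG00000048856 left out of the total.

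Glucose metabolism was the list with the most lower members by count. For glucose uptake, glycolysis and glycogen, of 31 members measured 1 was higher, 11 lower and the other 19 neither (median log2 ratio -0.38). Over all genes tested 8.38% were lower, and 10.4% of those that reached 50 CPM. At a muscle marker minimum of 3% the list had 9 lower. The log2 ratio of PYGB, a glycogen phosphorylase, ran from -0.69 to -0.47 over the settings, and its call changed under 2 of them. SLC2A4, the insulin-responsive glucose transporter, was at 96.6 CPM (WT) and 36.6 CPM (TG) (ratio 0.378, 0.360 to 0.397). PPP1R3C, which directs a phosphatase to glycogen, was at 158 and 58.4 CPM (ratio 0.370, 0.356 to 0.385), and PYGM, muscle glycogen phosphorylase, at 128 and 67.2 CPM. GAPDH was at 348 and 160.2 CPM and PGAM2, muscle phosphoglycerate mutase, at 31.5 and 17.3 CPM. The regulator PFKFB3 was higher, at 1.86 and 3.27 CPM. In TG, 16 of the 31 genes were at or below the median level of the comparison nuclei, against 9 in WT. GAPDH is one of them, with 333, 388 and 386 CPM in the TG comparison nuclei, and SLC2A4 is not, with 6.45, 8.07 and 12.9 CPM.

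At the entry of pyruvate into mitochondria, the kinase PDK4, which blocks it, was at 48.4 CPM (WT) and 347 CPM (TG) (ratio 7.16, 6.92 to 7.41). The other kinases of that enzyme met neither call, with PDK1 at 31.8 and 38.3 CPM, PDK2 at 50.5 and 43.9 CPM and PDK3 at 43.3 and 43.3 CPM. PDK4 was also higher in TG in the fibroblast (157 and 273 CPM), endothelial (67.4 and 203) and macrophage comparison nuclei (8.71 and 81.9). Of the other genes on the pyruvate, TCA cycle and ketone list, none was called higher. BDH1, which turns over ketone bodies, was lower at 90.3 and 31.5 CPM (ratio 0.349, 0.332 to 0.368), as were FH, fumarase (54.6 and 33.9 CPM), and MDH2, malate dehydrogenase (69.7 and 45.2 CPM). The list as a whole had 1 higher, 5 lower and 25 neither of 31 measured, and 1 higher and 2 lower with the most abundant transcript left out of the total, when FH and MDH2 were not called.

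Fatty acid genes were less one-sided: of 26 members measured 5 were higher, 2 lower and the other 19 neither (median log2 ratio -0.08), again with a median that took both signs. ACADM, medium-chain acyl-CoA dehydrogenase, was higher at 171 CPM (WT) and 277 CPM (TG), and ACSL1, which activates fatty acids on entry, lower at 427 and 218 CPM. The fatty acid carrier CD36 (1613 and 1768 CPM), the lipase LPL (1195 and 1035 CPM) and the mitochondrial gate CPT1B (109.9 and 104 CPM) met neither call. Lipid droplet and lipoprotein uptake genes had 7 higher, 4 lower and 18 neither of 29. Neither list exceeded the 24.9% of higher calls over all genes tested. LRP1B, a giant receptor of the LDL receptor family, led the lipid droplet and lipoprotein list, at 84.8 and 1754 CPM. VLDLR (88.1 and 65.3 CPM) and the droplet coat gene PLIN2 (22.7 and 24.6 CPM) met neither call.

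CKM, the muscle creatine kinase that buffers ATP (pig chromosome 6, 51704021 to 51716935), was lower at 707 CPM (WT) and 319.9 CPM (TG) (ratio 0.453, 0.445 to 0.460). Its TG level was near the 316, 326 and 310.3 CPM of the TG fibroblast, endothelial and macrophage nuclei. The mitochondrial creatine kinase CKMT2 read 481 and 424 CPM, with no call. Of 22 measured nuclear-encoded genes of the respiratory chain 0 were higher, 1 lower and 21 neither, and in TG 15 of the 22 were at or below the median level of the comparison nuclei. In insulin signalling, of 27 members measured 2 were higher, 4 lower and the other 21 neither (median log2 ratio -0.30). The receptor substrates IRS1 (142 and 70.2 CPM) and IRS2 (140.0 and 60.7 CPM, ratio 0.434, 0.417 to 0.451) and the transcription factor FOXO1 (202 and 111 CPM) were lower. The insulin receptor INSR read 461 and 372 CPM and the IGF receptor IGF1R 1551 and 1075 CPM, with no call.

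Immediate early genes had more lower than higher calls. Of 18 measured, 2 were higher, 6 lower and 10 neither (median log2 ratio -0.48). Over all genes 24.9% were higher and 8.38% lower. Lower genes included ATF3, NR4A1 and FOS, whose log2 ratios ran from -3.62 to -3.41, -2.97 to -2.76 and -2.22 to -1.69 over the settings. NR4A3 was at 474 CPM (WT) and 76.6 CPM (TG) and scarce in every WT comparison set (18.5, 23.7 and 4.19 CPM). JUN (92.8 and 64.4 CPM) and EGR1 (2.60 and 1.89 CPM) met neither call. Clock genes, which follow the hour of sampling, had 3 higher, 5 lower and 10 neither of 18, with ARNTL lower at 90.9 and 34.4 CPM. FKBP5, induced by glucocorticoids, was higher at 183 and 415 CPM (ratio 2.27, 2.22 to 2.31), and TSC22D3, another such gene, at 23.0 and 14.4 CPM, lower by plain CPM but not with the most abundant transcript left out of the total. The times of sampling are not given in the sources used here.

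Interferon-induced genes were scarce and mostly higher: of 20 members measured 13 were higher, 1 lower and the other 6 neither (median log2 ratio 1.00). Of all genes tested 24.9% were higher, with 38.0% at a mean of 0 to 1 CPM and 33.7% at 1 to 10 CPM. B2M, the light chain of MHC class I, was the one that reached 50 CPM, at 113 CPM (WT) and 241 CPM (TG). All 20 measured members were at or below the median of the comparison nuclei in both libraries, with B2M at 724, 5171 and 1129.5 CPM in those of TG. For each of them the comparison nuclei thus held as much or more. In the antioxidant list, 5 were higher, 2 lower and 18 neither of 25, with MGST1 at 106 and 223 CPM. Chaperones and protein turnover had 1 higher, 2 lower and 23 neither of 26, with the muscle ubiquitin ligase TRIM55 lower at 930.2 and 514 CPM. Splicing regulators had 0 higher, 2 lower and 15 neither of 17. RBFOX2 was at 1026 and 636 CPM, lower by plain CPM but not with the most abundant transcript left out of the total, and RBM20, which splices titin, read 2393 and 2115 CPM.

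**Figure D4:**
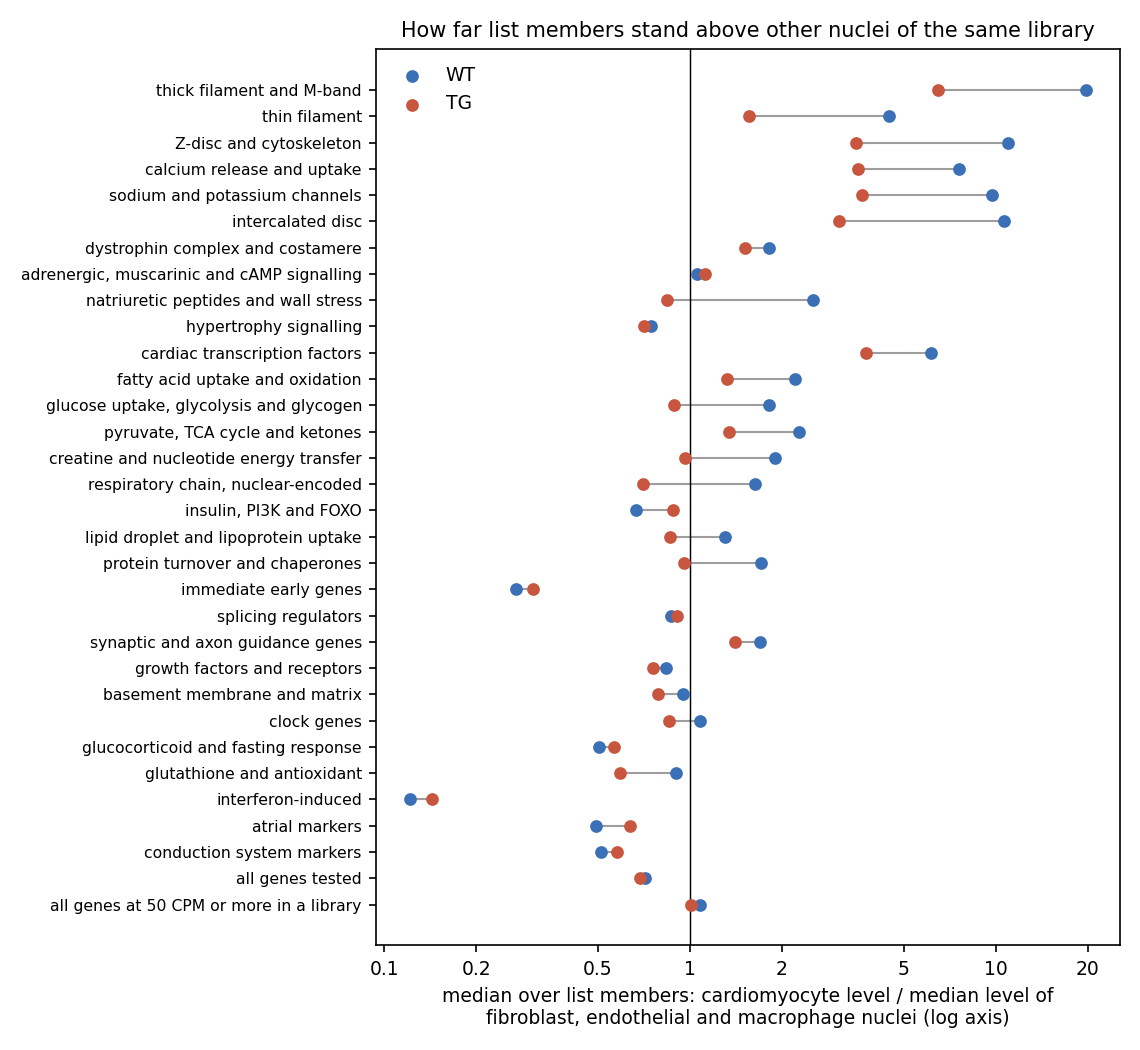
For each gene list, the median over its measured members of the level in cardiomyocyte nuclei divided by the median level of the fibroblast, endothelial and macrophage nuclei of the same library (log axis), WT in blue and TG in red. Thick filament genes stood 19.7 times above those nuclei in WT and 6.46 times in TG, and interferon-induced genes below them in both.

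Contractile genes stood out from other nuclei less in TG than in WT. The median thin filament gene was 4.47 times the comparison level in WT and 1.56 times in TG, and the median intercalated disc gene 10.6 and 3.07 times. Over all genes tested these values were 0.712 and 0.687 times. Lower cardiomyocyte levels and higher levels outside both enter the ratios. For MYL2, the ventricular regulatory light chain, the cardiomyocyte level went from 1957 to 1384 CPM between WT and TG and the fibroblast level from 733 to 2426 CPM.

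Genes of synapses and axon guidance, which neurons use to find and contact each other, were often higher. Of 37 members measured 18 were higher, 3 lower and the other 16 neither (median log2 ratio 0.58). Over all genes 24.9% were higher, with 38.0% at a mean of 0 to 1 CPM and 33.7% at 1 to 10 CPM. The list was chosen with earlier results of these data known, so its count is a description. The most abundant of the higher members in TG were GRIA1, an AMPA-type glutamate receptor subunit (24.3 CPM (WT) and 392 CPM (TG), ratio 16.2, 15.4 to 16.9), and UNC5C, a netrin receptor (23.7 and 214 CPM). NLGN1, neuroligin (45.3 and 179 CPM), LSAMP, a neural adhesion protein (34.9 and 139.9 CPM), and CNTN5, contactin (6.69 and 51.9 CPM), were higher as well. ROBO2, the receptor of SLIT (pig chromosome 13, 177365712 to 179040027), was the reverse, at 2460.5 CPM (WT) and 410.3 CPM (TG) (ratio 0.167, 0.164 to 0.169). Of the 37 genes, 17 in WT and 14 in TG were at or below the median level of the comparison nuclei. GRIA1 was low in the comparison nuclei, at 12.9, 9.34 and 11.0 CPM in TG. UNC5C was not, at 204, 5.51 and 424 CPM in WT and 243, 11.5 and 174 CPM in TG, so its cardiomyocyte level came up to that of fibroblast and macrophage nuclei. The guidance genes EFNA5 (1039.9 and 764 CPM) and PLXNA4 (189 and 246 CPM) met neither call.

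Growth factor genes had 9 higher, 7 lower and 15 neither of 31. FGF1 was lower at 387 CPM (WT) and 205 CPM (TG) (ratio 0.531, 0.520 to 0.542), its receptor FGFR1 was so too, though not with the most abundant transcript left out of the total (319.6 and 200.2 CPM), and GHR, the growth hormone receptor, was lower at 1042 and 614 CPM (ratio 0.589, 0.582 to 0.597). ERBB4, the neuregulin receptor, read 614 and 752 CPM, with no call. In the matrix list, 6 were higher, 4 lower and 18 neither of 28. FBLN5, fibulin 5 of elastic fibres (pig chromosome 7, 113423629 to 113526412), was at 298 and 9.03 CPM in cardiomyocyte nuclei, yet at 354 and 234 CPM in fibroblast nuclei. The laminin chain LAMA4 was lower at 497 and 276 CPM, and LAMC1 read 524 and 443 CPM, with no call.

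Among all genes at 100 CPM or more with a symbol, the 30 furthest apart in each direction had ratios between 2.25 and 20.7 where TG was higher, and between 2.28 and 33.0 where WT was higher. All 60 kept their call under every alternative tried. Of the 30 higher genes 18 were at least 2 times above the comparison nuclei in TG and 7 at or below them, and of the 30 lower genes 20 and 5 in WT. SVEP1, a large matrix protein, was at 30.6 CPM (WT) and 179 CPM (TG) (ratio 5.87, 5.61 to 6.13) and TACR1, the receptor of substance P, at 70.8 and 250.2 CPM (ratio 3.53, 3.42 to 3.64). EHBP1, of endocytic traffic, was at 553 and 1465 CPM, DCP1B, of messenger decapping, at 146 and 408 CPM, and MAOB, a monoamine oxidase of mitochondria, at 43.7 and 104 CPM. GPR161, a receptor of the primary cilium, was at 155 and 399 CPM. TACR1 was low in the TG comparison nuclei, at 4.30, 5.52 and 8.39 CPM. SVEP1 was not, since TG fibroblast nuclei held 741 CPM.

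The lower genes of that ranking included KIF26B, of the kinesin family (pig chromosome 10, 17708365 to 18220052), at 602 CPM (WT) and 193 CPM (TG) (ratio 0.320, 0.314 to 0.327), and MPP7, a membrane scaffold, at 878 and 386 CPM (ratio 0.439, 0.433 to 0.446). PPM1K, the phosphatase that activates breakdown of branched-chain keto acids, was at 329 and 115 CPM (ratio 0.350, 0.340 to 0.359). NDST3, of heparan sulfate synthesis, read 183 and 26.3 CPM, and ASB18 209 and 60.7 CPM. The WT comparison nuclei held 2.32, 20.6 and 5.16 CPM of NDST3. PLCB1, a phospholipase downstream of hormone receptors, was at 196 and 61.7 CPM, but the WT comparison nuclei held 2913, 1018 and 275 CPM. GLUL, glutamine synthetase, was likewise lower, at 127 and 44.8 CPM, with 175, 51.6 and 332 CPM there.

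CDK1, the mitotic kinase, was at 41.7 CPM (WT) and 182 CPM (TG) (ratio 4.37, 4.21 to 4.55), with 38.7, 105 and 105 CPM in the TG comparison nuclei. Other genes of division, chosen after this value was seen, were scarce: TOP2A had 13 UMIs in WT and 30 in TG, CENPF 15 and 35, BUB1 10 and 23, and CCNB1 43 and 21. SMC2, a condensin subunit, was higher at 11.2 and 79.0 CPM, and its partner SMC4 read 11.5 and 15.8 CPM. Of 5766 TG nuclei, 3667 had a UMI of CDK1 and 17 had one of TOP2A.

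To compare shares of nuclei at one depth, each nucleus was thinned to 2000 UMIs, which left out 151 WT and 10 TG cardiomyocyte nuclei. LRP1B (pig chromosome 15, 9612805 to 11499969) had a UMI in 6.89% of thinned WT and 74.2% of thinned TG cardiomyocyte nuclei (12.4% and 84.6% before thinning). In thinned TG fibroblast, endothelial and macrophage nuclei the share was 7.06%, 11.7% and 6.99%. Those classes had median depths of 2538, 2952 and 2848 UMIs before thinning. GRIA1 behaved alike, with 3.25% and 45.1% (10.5% and 76.5%). Both genes were thus read in a far larger share of TG than of WT nuclei.

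ROBO2 ran the other way, in 71.2% of thinned WT and 20.6% of thinned TG cardiomyocyte nuclei (79.7% and 31.8%). In TG, 666 nuclei (11.6%) had at least 10 UMIs of ROBO2 and held 85.0% of its UMIs, while 3930 had none. NR4A3 was read in 46.5% and 11.7% (78.2% and 36.2%), and FBLN5 in 41.6% and 1.67% (83.7% and 6.28%). The FBLN5 share in TG cardiomyocyte nuclei was below the 2.68% of TG endothelial and 2.12% of TG macrophage nuclei, so it is not read as expression.

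**Figure D5:**
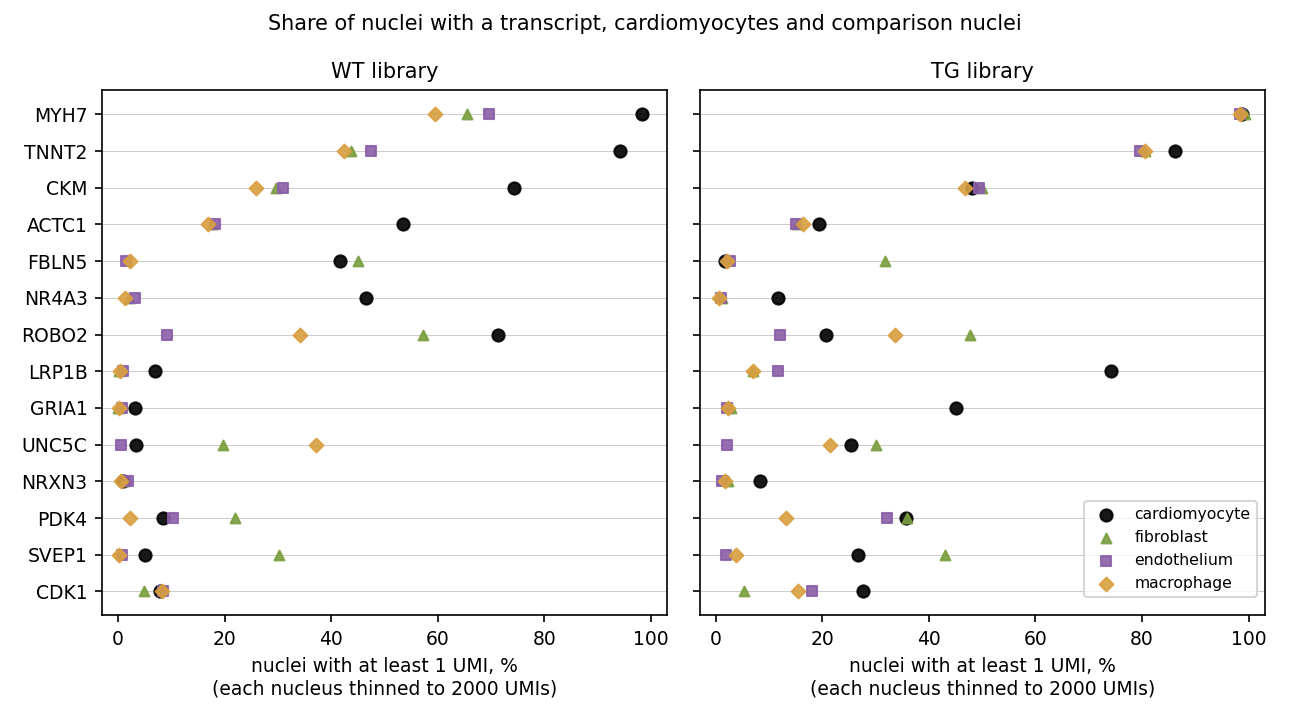
Share of nuclei with at least 1 UMI of each gene after thinning every nucleus to 2000 UMIs, in WT (left) and TG (right), for cardiomyocyte nuclei (black) and the fibroblast, endothelial and macrophage comparison nuclei. LRP1B and GRIA1 separate TG cardiomyocyte nuclei from the rest, ROBO2 and NR4A3 were read in more WT cardiomyocyte nuclei, and for MYH7, TNNT2 and CKM the classes lie close together in TG.

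NRXN3, neurexin 3 (pig chromosome 7, 101132780 to 102779809), was high in few nuclei. Its level was 12.1 CPM (WT) and 193 CPM (TG), and it had a UMI in only 8.32% of thinned TG nuclei (15.2% unthinned) and 0.914% of thinned WT nuclei. The variance-to-mean ratio of its thinned counts was 15.7 in TG, against 1.17 for genes of like level. In TG, 231 nuclei with at least 10 UMIs of NRXN3 held 86.8% of its UMIs, and 18 WT nuclei held 64.6%. These groups of nuclei, and those that follow, were chosen after their values were seen and are described without a test. NRXN3-rich nuclei had no more neural marker transcripts than nuclei without NRXN3 (27.7 and 28.0 CPM over the list). They had more CCSER1 (127 and 58.0 CPM) and less of the protease ADAMTS20 (159 and 375 CPM) and of LRP1B (1334 and 1769 CPM). The mean of NRXN3 over TG thus describes few of its nuclei.

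LRP1B was graded in TG, where 3126 nuclei had at least 10 UMIs and 886 had none, at median depths of 10880.5 and 5505 UMIs. In WT 234 nuclei (3.43%) had at least 10 UMIs and held 71.6% of its UMIs. LRP1B-rich WT nuclei had more RGS6, a regulator of G protein signalling (95.5 and 12.4 CPM against nuclei without LRP1B), more GRIA1 (77.0 and 19.3 CPM) and more LRRC7, a synaptic scaffold (647 and 213 CPM). LRRC7 was also higher in LRP1B-rich TG nuclei (523 and 226 CPM), as was GRIA1 (442 and 253 CPM). Both genes thus went with LRP1B in each library. Depth differed as well, and its part was not tested.

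A set of 55 TG nuclei was rich in SLCO6A1, an organic anion transporter gene. These nuclei had more of its relative SLCO4C1 (130.3 and 1.26 CPM against nuclei without SLCO6A1), of NPPB (145 and 4.09 CPM), of the deiodinase DIO2 (69.4 and 0.737 CPM) and of the synaptic gene UNC13C (107 and 4.02 CPM). Their median depth was 14192 UMIs against 8074.5. MYH7 read 2414 and 2729 CPM. Over all TG cardiomyocyte nuclei UNC13C was uneven, with 26.4% of its 333 UMIs in 3 nuclei. How many of the 55 nuclei held it was not counted. In WT, 1339 nuclei with at least 10 UMIs of NR4A3 also had more NR4A1 (283 and 113 CPM), ATF3 (58.0 and 19.9 CPM) and ABRA, an actin-binding activator of SRF (311 and 167 CPM), at depths of 15609 and 7379 UMIs.

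Other sets of nuclei carried transcripts of other cells. In TG, 248 nuclei had at least 10 UMIs of GSN, gelsolin, and their fibroblast marker list summed to 5560.2 CPM, against 168 CPM in nuclei without GSN. They also held COL6A3, a collagen (255 and 6.57 CPM), and C7, a complement protein (225 and 7.20 CPM). In WT, 8 nuclei rich in IL1RAPL2 had 3734 and 10.8 CPM of neural markers, with XKR4 at 1777 and 1.33 CPM. A further 77 WT nuclei rich in HBB, a globin, also held HBM (85.8 and 0.544 CPM) and AHSP (61.6 and 0.430 CPM), genes of red blood cells. Droplets with more than 1 nucleus were not called, and only the marker limits of the choice act against them.

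Over all cardiomyocyte nuclei, endothelial, fibroblast, pericyte and lymphocyte markers were mostly higher in TG, and macrophage, smooth muscle and lymphatic markers were not. Higher calls were common among scarce genes of any kind, at 38.0% for a mean of 0 to 1 CPM and 33.7% for 1 to 10 CPM. They made up 24.9% of all genes tested. The lymphatic share of higher calls was near that of scarce genes. The endothelial list summed to 136 and 287 CPM with 12 of 13 members higher and 0 lower, and the pericyte list had 6 of 10 higher and 0 lower. The fibroblast list summed to 309.5 and 612 CPM with 6 of 11 higher and 1 lower, and the lymphocyte list had 6 of 9 higher and 0 lower. The macrophage list summed to 181 and 156 CPM with 2 of 11 higher and 0 lower. The smooth muscle list summed to 130.0 and 126 CPM with 2 of 7 higher and 3 lower, and the lymphatic list to 189.6 and 186 CPM with 3 of 8 higher and 0 lower. The adipocyte list had 3 of 5 higher and the neural list 1 of 5, with 0 lower in each. Defining genes stayed low: CDH5 of endothelium read 1.79 and 4.98 CPM, PDGFRB of pericytes 1.67 and 5.98 CPM, CD3E of T cells 0.833 and 1.65 CPM and CSF1R of macrophages 7.22 and 8.38 CPM. Nuclei in which the fibroblast list took at least 0.1% of UMIs made up 274 (4.02%) of WT and 577 (10.0%) of TG cardiomyocyte nuclei. Without nuclei rich in fibroblast, neural or lymphocyte markers, an alternative added after seeing the data, the log2 ratio of GSN was 1.93 in place of 1.71, and that of LRP1B 4.41 in place of 4.37. The atrial list summed to 2301 and 2143 CPM over 8 measured genes, nearly all of it from KCNJ3 and PAM (775 and 984 CPM). The conduction list summed to 81.9 and 116 CPM over 11, with GJA5 at 0.453 and 1.53 CPM and TBX3 at 1.56 and 4.77 CPM.

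Some levels varied with the depth of the nucleus. From the shallowest to the deepest of 4 equal groups of nuclei, MYH7 read 3525, 2818, 2450.2 and 2199 CPM in WT and 4175, 3004, 2569 and 2192 CPM in TG. ACTC1 read 652, 560.5, 481 and 426 CPM in WT and 167, 156, 138 and 115 in TG. The groups were cut within each library. Their median depths were 5442, 9206, 12768 and 18878 UMIs in WT and 4245.5, 7173, 10392 and 15822 in TG, so each TG group was shallower. Between groups of the same rank, ACTC1 was lower in TG in each. MYH7 was higher in TG in 3 groups and lower in the deepest, and the part of depth in this was not tested. LRP1B read 47.6, 69.7, 78.0 and 105 CPM in WT and 1362, 1546, 1694 and 1967 in TG, higher in TG in each.

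The pig genes that match the transgenes did not check the labels, since whether transgene transcripts align to them was not determined. PNPLA3 had 30 UMIs in WT and 40 in TG cardiomyocyte nuclei (0.368 and 0.711 CPM), GIPR 0 and 2, and IAPP 2 and 1. At this depth, a count of 0 over the WT nuclei allows up to 3 UMIs of GIPR. The Y-linked gene KDM5D read 28.4 and 6.35 CPM and EIF1AY, named from the reference table, 30.6 and 31.0 CPM.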

How the data were processed

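Nuclei from frozen left ventricular free wall were sequenced with the Chromium 3' v3.1 chemistry of 10x Genomics, with 1 library per genotype. The deposited matrices hold raw UMI counts per gene and barcode, made with Cell Ranger 5.0.0 per the file headers. The submitters' processing notes name Cell Ranger 3.1.0, Seurat 3.1.1 and the pig genome Sscrofa11.1. Barcodes with at least 500 genes and at most 5% mitochondrially encoded UMIs were kept (16725 of 18251 in WT, 14939 of 15000 in TG). Counts of cardiomyocyte nuclei were summed per library and divided by their nuclear-encoded UMIs, leaving out 13 mitochondrial genes, to give CPM; log2 values of single genes used a pseudocount of 0.5 UMIs. Intervals are exact: Clopper-Pearson for shares, Poisson for levels and conditional binomial for ratios. No p-value was computed. Comparison nuclei held at least 0.3% of UMIs of 1 other marker set. The matrices list 31908 genes, of which 16498 have a symbol in the files, and 841 symbols were added from the RefSeq table of Sscrofa11.1, which also gave coordinates. Of 837 genes in 41 lists, 770 matched and 745 were measured.

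Members and lists were chosen with earlier results of these data known. Genes were named by a rule: list members at 10 CPM with a ratio of 2 and the 3 most abundant of each list, the 30 furthest apart in each direction at 100 CPM, the 15 most variable and the 20 most abundant per library. Other genes named in the text were chosen after their values were seen, and the alternatives were run for them as well. No doublet caller was used. The calling of genes was tested on simulated data. Alternatives changed the marker limits, filters, scaling and depth. Python 3.11.15, numpy 2.4.6, scipy 1.17.1, pandas 2.3.3, matplotlib 3.10.9, R 4.3.3 and edgeR 4.0.16 (TMM factors only) were used.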

Additional observations from a re-analysis of the deposited data

How the results depend on the processing

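With 1 library per genotype, no result has a replicate check, and genotype, animal and library cannot be told apart. No paired analysis was possible because each genotype has 1 library. The share of cardiomyocyte nuclei was 41.8% in WT and 41.0% in TG at a marker minimum of 1%, and 26.4% and 12.4% at 3%. It was 38.8% and 35.9% with other marker sets under 0.05%, and 42.0% and 39.7% with them under 0.2%. It was 49.4% and 48.4% with mitochondrial transcripts at most 1%, and 38.8% and 36.7% without the 5% of nuclei with the most UMIs. With at least 2000 UMIs per nucleus it was 45.1% in WT and 39.0% in TG. Without nuclei rich in fibroblast, neural or lymphocyte markers, an alternative chosen after seeing the data, it was 38.9% and 34.2%. The number of genes higher in TG was 2958 after thinning to 2000 UMIs. At a ratio of 2 it was 3187, with 606 lower. The log2 ratio of ADIPOQ, an adipocyte gene, was -0.25 at a marker minimum of 3%, against 1.75 as reported; the cause was not tested. Of 4995 values of named genes under the alternatives, 4858 kept their call or lack of one, 64 lost the call and 72 gained one. The settings with a minimum of 1 or 100 UMIs per gene could not change the call of a single gene. All 333 values of each are among the 4858. The ratio of 2 was not applied to these values. A called gene changed direction in 1 value. Direction was compared for called genes only. CCNB1, which had no call, ran from a log2 ratio of -0.97 to 1.00 over the settings. With the most abundant transcript left out of the total 21 of 333 genes lost the call, and after thinning 13 did. The medians of 10 of 39 lists took both signs over the settings.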
